A study of Homo sapiens with 4 samples.

Results

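The plasminogen activator system and the membrane-type matrix metalloproteinases cut extracellular proteins at the cell surface. Urokinase (PLAU) and tissue plasminogen activator (PLAT) turn plasminogen into plasmin, the urokinase receptor (PLAUR) holds urokinase on the membrane, and protease nexin-1 (SERPINE2) is a serpin that traps urokinase, tissue plasminogen activator, plasmin and thrombin. The membrane-anchored metalloproteinases MMP14 and MMP15 cut matrix proteins and activate other secreted metalloproteinases, and the tissue inhibitors TIMP2 and TIMP3 block them. Many genes of both systems are known targets of AP-1, a dimer of FOS and JUN family proteins, or of TGF-beta signaling, and several are produced by invading carcinoma cells.

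These 8 genes were taken by symbol, through the Ensembl identifier of each row, from the 19901 protein-coding genes of a TT-Seq count table. TT-Seq purifies RNA that took up 4-thiouridine (4sU) during a short pulse, so that it measures nascent transcripts. The cells were clone D5 of HCT116 KAP1dTAG, a colon cancer line in which KAP1 (the product of TRIM28) carries a degron tag. Both conditions came from this 1 clone and carry the tag. They were grown with 7% fetal bovine serum, treated for 8 h with DMSO, the vehicle, or with dTAG, the ligand that sends tagged KAP1 to degradation, and labeled with 500 μM 4sU for 10 min. Each condition had 2 libraries, each from 3 dishes. Since KAP1 depletion was compared with vehicle in unstimulated cells, the question addressed is which nascent transcripts differ 8 h after the ligand was added.

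With dTAG, 1 of the 8 genes was upregulated, 1 was downregulated, 5 did not pass the test and 1 was almost silent. The receptor gene PLAUR was 1.35-fold higher and MMP15 was 0.774 of its DMSO level. Both activators, the inhibitor SERPINE2, MMP14 and TIMP2 had adjusted p-values between 0.12 and 0.78. TIMP3 had 1 to 6 counts per library and was not tested. The calls use the quasi-likelihood test of edgeR, adjusted after Benjamini and Hochberg over all tested genes, at an adjusted p under 0.05. The 2 calls among the 7 tested members (28.6%) stand beside 7.1% called among all 12612 tested genes. The members were chosen with earlier results of these data known, so their share is a description. Among all tested genes, 3.44% were called higher and 3.66% lower.

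The promoters of PLAUR, of its ligand gene PLAU and of MMP15 are shown because AP-1 and the SMAD proteins of TGF-beta signaling bind DNA, and because PLAUR and MMP15 are the members that were called. Each run is the 250 bases before a RefSeq transcription start in GRCh38.p14, read 5′ to 3′ on the gene's strand, and capitals mark the AP-1 site TGAGTCA. The PLAUR run is chr19:43670170-43670419 (minus strand), the PLAU run is chr10:73910882-73911131 (plus strand) and the MMP15 run is chr16:58025504-58025753 (plus strand).
PLAUR: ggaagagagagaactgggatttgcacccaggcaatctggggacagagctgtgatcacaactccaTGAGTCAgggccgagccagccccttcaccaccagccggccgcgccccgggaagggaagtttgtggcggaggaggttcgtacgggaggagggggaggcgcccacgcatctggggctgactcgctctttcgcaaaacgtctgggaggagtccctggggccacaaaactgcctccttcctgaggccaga
PLAU: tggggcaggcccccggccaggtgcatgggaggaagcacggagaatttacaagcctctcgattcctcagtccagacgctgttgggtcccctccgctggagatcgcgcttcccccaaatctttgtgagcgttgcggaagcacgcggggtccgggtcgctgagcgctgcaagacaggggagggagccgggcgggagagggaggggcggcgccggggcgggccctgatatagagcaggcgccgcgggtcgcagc
MMP15: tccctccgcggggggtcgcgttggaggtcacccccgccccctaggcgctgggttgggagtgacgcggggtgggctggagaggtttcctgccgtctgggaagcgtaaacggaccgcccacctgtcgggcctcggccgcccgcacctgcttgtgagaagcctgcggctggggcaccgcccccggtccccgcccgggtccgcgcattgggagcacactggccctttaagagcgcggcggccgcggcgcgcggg
RefSeq promoters were matched for 6 of the 8 genes, 8 promoters in all, since SERPINE2 and PLAU have a pair of starts each. The letters TGAGTCA, searched on both strands, were found in 1 of these 8 promoters, that of PLAUR, from 186 to 180 bases before the start. They occur in 4.20% of the 35116 promoters of the table. The cAMP response element TGACGTCA was in 0 of 8 member promoters and in 1.65% of all. The short SMAD element CAGAC was in 4 of 8, those of PLAUR, MMP15, TIMP3 and the PLAU start shown, and in 38.0% of all, while the palindrome GTCTAGAC was in 0 of 8 and in 0.182%. None of these motifs contains another. A match describes letters in this window and does not show binding. The PLAUR start lies 378 bases inside the counted gene, the PLAU start 1956 and the MMP15 start 189, so that part or all of each run also lies in the counted interval.

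Counts on genes were between 93105627 and 102314741 per library, and 895 of 12612 tested genes were called, 434 higher and 461 lower. That split was 255 higher and 869 lower with upper-quartile scaling, 452 and 744 with an ERCC spike-in factor, 1343 and 941 after removal of trends with GC content and gene length, and 48 and 21 without dTAG replicate 2. The median tested gene had a log2 fold change of -0.015, but 0.63 when ERCC totals set the library sizes, so changes are relative to the bulk of the genes. Over the tested genes, which are not independent replicates, Spearman's rho of the change with GC content was -0.56 and with gene length 0.42. TRIM28 RNA was lower with dTAG (log2 fold change -0.37, adjusted p = 0.019 in the edgeR quasi-likelihood test), but the sign turned with ERCC totals (0.28). In the same test the call was also lost with GC and length trends removed (-0.10, adjusted p = 0.17), with the ERCC factor (-0.23, adjusted p = 0.059), without dTAG replicate 1 (adjusted p = 0.18) and without dTAG replicate 2 (adjusted p = 0.88). Because dTAG removes protein, the RNA level of TRIM28 is no check of the labels. Of 12 colon epithelial markers, 8 were tested and 0 called, with 3 at an unadjusted p under 0.05. The summed level of the 12 was 1118 to 1244 CPM (counts relative to the scaled library size). Most of it came from KRT8, KRT18, KRT19, CDH1 and EPCAM, while KRT20, CDX1, VIL1 and LGALS4 had at most 31 counts per library. The fibroblast, leukocyte and endothelial lists summed to 5.28 to 6.08, 4.33 to 5.43 and 2.28 to 3.54 CPM. Most of each sum came from 1 gene, COL1A1 (4.65 to 5.43 CPM), CD68 (3.32 to 4.16) and VWF (1.41 to 2.18). The fibroblast markers LUM, PDGFRA and COL1A2 were at 0 in all 4 libraries. A smaller share of cells that express a gene and less RNA per cell cannot be told apart in these bulk libraries.

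**Figure D1:**
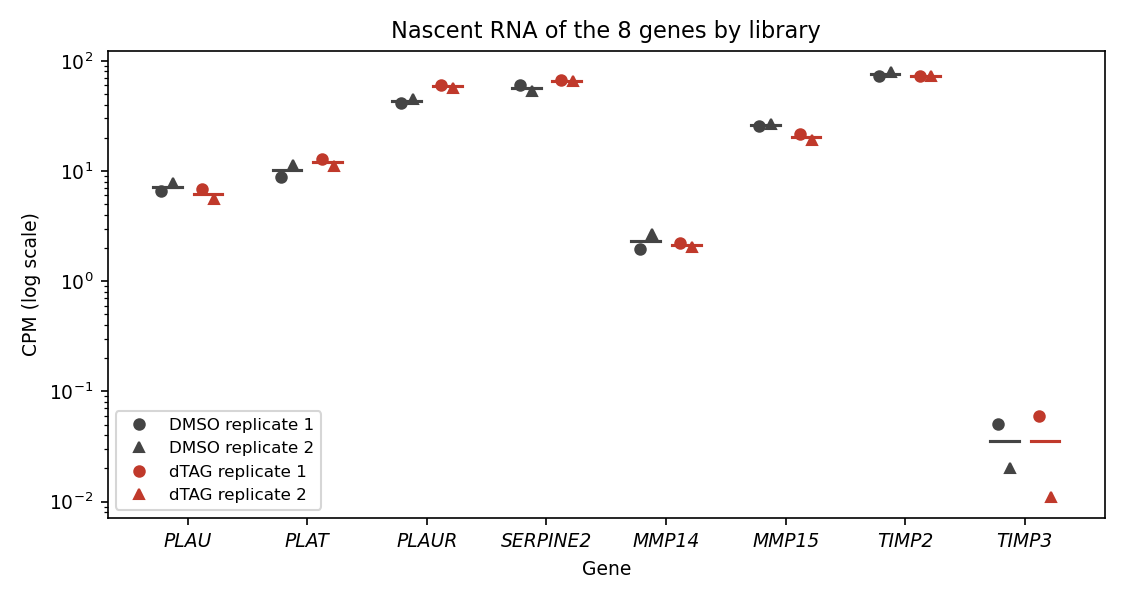
Nascent RNA of the 8 genes in each library, as CPM on a log axis. Circles are replicate 1 and triangles replicate 2 of DMSO (grey) and dTAG (red), and horizontal lines are means of 2 libraries. The dTAG points lie above both DMSO points for PLAUR and SERPINE2 and below both for MMP15, and TIMP3 lies between 0.011 and 0.060 CPM.

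The levels of the genes were compared per kilobase of gene, as the mean of the 2 DMSO libraries in CPM per kilobase. Over the full gene length, PLAUR was highest at 1.78 ± 0.112 (SD, n = 2), above 66.9% of tested genes, whose median was 1.06. MMP15 followed at 1.23 ± 0.0430, TIMP2 at 1.04 ± 0.0692, SERPINE2 at 0.884 ± 0.0697 and PLAU at 0.867 ± 0.0990. The ranges over the 4 libraries overlapped between MMP15 and TIMP2, between TIMP2 and SERPINE2, and between SERPINE2 and PLAU, so this middle order is not resolved. PLAT at 0.311 ± 0.0562 and MMP14 at 0.187 ± 0.0412 lay apart below them, above 22.1% and 16.1% of tested genes. TIMP3 was at 0.000575 CPM per kilobase. The TIMP2 level depends on counting, because CEP295NL, on the same strand, covers 44.6% of TIMP2 and had 0 counts in all 4 libraries. All 436 genes that lie wholly inside another gene of the same strand had 0 counts in all 4 libraries, against 121 of 608 (19.9%) inside a gene of the opposite strand only, so reads shared by same-strand genes were not counted. Over the 40.1 kb that TIMP2 does not share, its level was 1.89 CPM per kilobase, above PLAUR at 1.78. Whether PLAUR or TIMP2 was highest thus depends on the length used. The 1.89 lay above 68.8% of tested genes, whose own levels were still taken over their full length.

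PLAUR (ENSG00000011422.11) lies at chr19:43646094-43670547 of hg38 on the minus strand, and exons make up 18.2% of the interval over which reads were counted. It had 41.5 and 45.4 CPM in DMSO replicates 1 and 2, and 60.6 and 56.4 CPM in dTAG replicates 1 and 2. Both dTAG libraries lay above both DMSO libraries. The means were 43.4 ± 2.74 (SD, n = 2) and 58.5 ± 2.99 (SD, n = 2) CPM, from 4110 to 6068 counts per library. The log2 fold change was 0.43 (standard error 0.091, 95% interval 0.24 to 0.62), and the adjusted p was 0.0068 (quasi-likelihood test of edgeR, Benjamini-Hochberg adjustment). The receptor is held on the membrane by a lipid anchor and has no part inside the cell. The call was lost without dTAG replicate 1 (log2 fold change 0.38, adjusted p = 0.30), without dTAG replicate 2 (0.48, adjusted p = 0.22) and with ERCC totals (1.08, adjusted p = 0.47, where the median gene was at 0.63), all in the edgeR quasi-likelihood test. PLAUR was called in 11 of the 14 other settings and higher in 14 of 14.

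No gene of the counted set overlaps PLAUR. Its nearest neighbour, the cell adhesion gene CADM4 at 6.3 kb, was not called (log2 fold change -0.13, adjusted p = 0.49 in the edgeR quasi-likelihood test), and IRGC, at 45.5 kb on the other side, had at most 1 count per library. The 3 tested genes whose log2 CPM, centred on each gene's mean, lay nearest to PLAUR over the 4 libraries were CNTNAP3C, HK2 and DACT1, at Euclidean distances of 0.035, 0.038 and 0.039. HK2, a hexokinase of glycolysis, had 152.7 and 166.8 CPM with DMSO and 216.2 and 208.2 with dTAG. CNTNAP3C belongs to a family of near-identical copies, so its counts are uncertain. In all, 29 genes lay within a distance of 0.1, and 4 libraries allow many such matches.

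The urokinase gene, unlike that of its receptor, was not called. PLAU (ENSG00000122861.15, chr10:73909176-73917497, plus strand) had 6.63 and 7.80 CPM in the DMSO libraries and 6.92 and 5.52 CPM in the dTAG libraries, so the groups overlapped. Its log2 fold change was -0.21 (standard error 0.16, 95% interval -0.55 to 0.13), with an adjusted p of 0.41 in the edgeR quasi-likelihood test. On the opposite strand, C10orf55 overlaps 90.5% of PLAU and had 42 to 74 counts per library against 498 to 778 on PLAU. Within each library, which removes the scaling, the log2 ratio of PLAU to PLAUR counts was -2.65 and -2.54 with DMSO and -3.13 and -3.35 with dTAG. The groups of this ratio did not overlap, and the difference of -0.65 was larger than the pooled SD of 0.12 (n = 2 per group). The ratio keeps trends with GC content and gene length. With these trends removed, the log2 fold changes were -0.025 for PLAU and 0.52 for PLAUR. With 2 libraries against 2, no exact two-sided permutation test of a single ratio can go below p = 0.333, so the ratios given here are descriptions. Relative to PLAUR, PLAU was lower in each dTAG library than in each DMSO library.

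Tissue plasminogen activator, PLAT (ENSG00000104368.17, chr8:42175232-42207724, minus strand), had 8.81 and 11.4 CPM with DMSO and 12.9 and 11.1 CPM with dTAG. The groups overlapped, since dTAG replicate 2 lay below DMSO replicate 2. The log2 fold change was 0.25 (standard error 0.15, 95% interval -0.054 to 0.56), with an adjusted p of 0.28 in the edgeR quasi-likelihood test. It was called with the ERCC factor (0.56, adjusted p = 0.019) and without DMSO replicate 2 (0.45, adjusted p = 0.017), by the same test.

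SERPINE2 (ENSG00000135919.12, chr2:223975111-224039319, minus strand) had 59.9 and 53.6 CPM with DMSO and 67.3 and 64.9 CPM with dTAG. Both dTAG libraries lay above both DMSO libraries, as they did for 28.1% of all tested genes. The log2 fold change of 0.22 (standard error 0.088, 95% interval 0.037 to 0.40) did not pass, with an adjusted p of 0.12 in the edgeR quasi-likelihood test. Without DMSO replicate 1, the change was 0.30 and was called (adjusted p = 4.8e-04 by the same test). The log2 ratio of SERPINE2 to PLAU was 3.17 and 2.78 with DMSO and 3.28 and 3.56 with dTAG. Its groups did not overlap, with a difference of 0.44 and a pooled SD of 0.24. Such a ratio does not remove trends with GC content and gene length, in which the 2 genes differ. With these trends removed, the log2 fold changes were 0.16 for SERPINE2 and -0.025 for PLAU, and with the ERCC factor 0.073 and 0.020. Counting SERPINE2, PLAUR and MMP15, 3 of the 7 tested members had groups that did not overlap, beside 58.8% of all tested genes.

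Of the membrane-type metalloproteinases, MMP15 (ENSG00000102996.4, chr16:58025565-58046901, plus strand) had 25.6 and 26.9 CPM with DMSO and 21.8 and 18.9 CPM with dTAG. Both dTAG libraries lay below both DMSO libraries, as for 30.7% of all tested genes. The log2 fold change was -0.37 (standard error 0.11, 95% interval -0.60 to -0.14), with an adjusted p of 0.047 in the edgeR quasi-likelihood test, close to the threshold. MMP15 was called in 6 of the 14 other settings and lower in 13 of 14, the exception being ERCC totals (0.27, below the median gene at 0.63). The call was lost without dTAG replicate 1 (-0.47, adjusted p = 0.24), without dTAG replicate 2 (-0.27, adjusted p = 0.94), with the ERCC factor (-0.30, adjusted p = 0.085) and with a count minimum of 10 (-0.36, adjusted p = 0.050), by the same test. USB1, an RNA exonuclease gene 3.9 kb away, and CFAP20, 66.7 kb away, were not called (log2 fold changes of -0.10 and -0.08, adjusted p = 0.51 and 0.55 by the same test).

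The changes of the members were also set beside those of genes of like GC content. MMP15 has 59.5% GC, against a median of 44.9% over tested genes, and 631 tested genes of like GC content had a median change of -0.22 on the log2 scale, with MMP15 at percentile 25.0 among them. After each library's trends with GC content and gene length were removed, its log2 fold change was -0.13 (adjusted p = 0.27 in the edgeR quasi-likelihood test). PLAUR, with 49.9% GC, stood at percentile 98.1 of its 631 genes of like GC, whose median was -0.10, and its change was 0.52 with the trends removed (adjusted p = 2.9e-05 by the same test). PLAT stood at percentile 96.0, SERPINE2 at 88.9, TIMP2 at 73.7, MMP14 at 63.3 and PLAU at 38.4 of their GC classes. The changes of PLAU and MMP14 lay nearer to the median of genes of like GC content than those of PLAUR and PLAT.

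**Figure D2:**
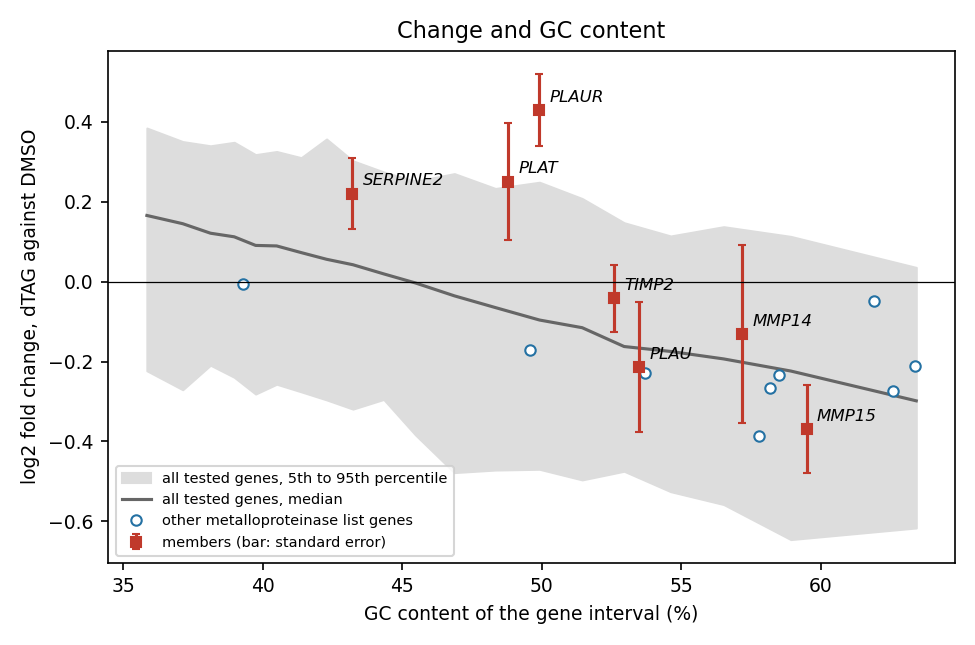
Log2 fold change of dTAG against DMSO (TMM scaling) plotted against GC content of the gene interval in percent. The grey line and band are the median and the 5th to 95th percentile of 20 classes of tested genes, squares are the 7 tested members with standard errors, and open circles are the 9 other tested genes of the metalloproteinase list. PLAUR and, by little, PLAT lie above the band, and MMP15 lies inside it, at -0.37 where the median of its class was -0.22.

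MMP14 (ENSG00000157227.12, chr14:22836556-22849027, plus strand) is the best known activator of the gelatinase MMP2. It had 1.97 and 2.70 CPM with DMSO and 2.21 and 2.05 CPM with dTAG, both dTAG values lying between the DMSO values. The log2 fold change was -0.13 (standard error 0.22, 95% interval -0.60 to 0.33), with an adjusted p of 0.73 in the edgeR quasi-likelihood test. With 185 to 269 counts per library it was the least precise of the tested members. The log2 ratio of MMP14 to MMP15 was -3.70 and -3.32 with DMSO and -3.30 and -3.21 with dTAG, a difference of 0.26 with a pooled SD of 0.20. These groups did not overlap, but DMSO replicate 2 and dTAG replicate 1 differed only in the second decimal.

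TIMP2 (ENSG00000035862.12, chr17:78852976-78925387, minus strand), which inhibits MMP14 and also joins it in activating MMP2, had the most counts of the members, 6620 to 7898 per library. Its levels were 72.1 and 79.2 CPM with DMSO and 73.5 and 73.4 CPM with dTAG, so that the dTAG libraries lay between the DMSO libraries. The log2 fold change was -0.04 (standard error 0.085, 95% interval -0.22 to 0.13), with an adjusted p of 0.78 in the edgeR quasi-likelihood test. Of the 7 tested members it had the value nearest to 0 and the smallest standard error. The log2 ratio of MMP14 to TIMP2 was -5.19 and -4.88 with DMSO and -5.06 and -5.16 with dTAG, and the groups overlapped.

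TIMP3 (ENSG00000100234.11, chr22:32801700-32863043, plus strand), an inhibitor that stays bound to the matrix, had 5 and 2 counts with DMSO and 6 and 1 counts with dTAG. Each condition thus had 7 counts in all. Without a count filter, its log2 fold change was 0.05 with a standard error of 1.42, so that no difference could be detected at this depth. SYN3, whose gene covers all of TIMP3 on the opposite strand, had 29 to 57 counts per library. The median log2 fold change of the 7 that were tested was -0.04, beside -0.015 for all tested genes, with 3 higher and 4 lower.

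**Figure D3:**
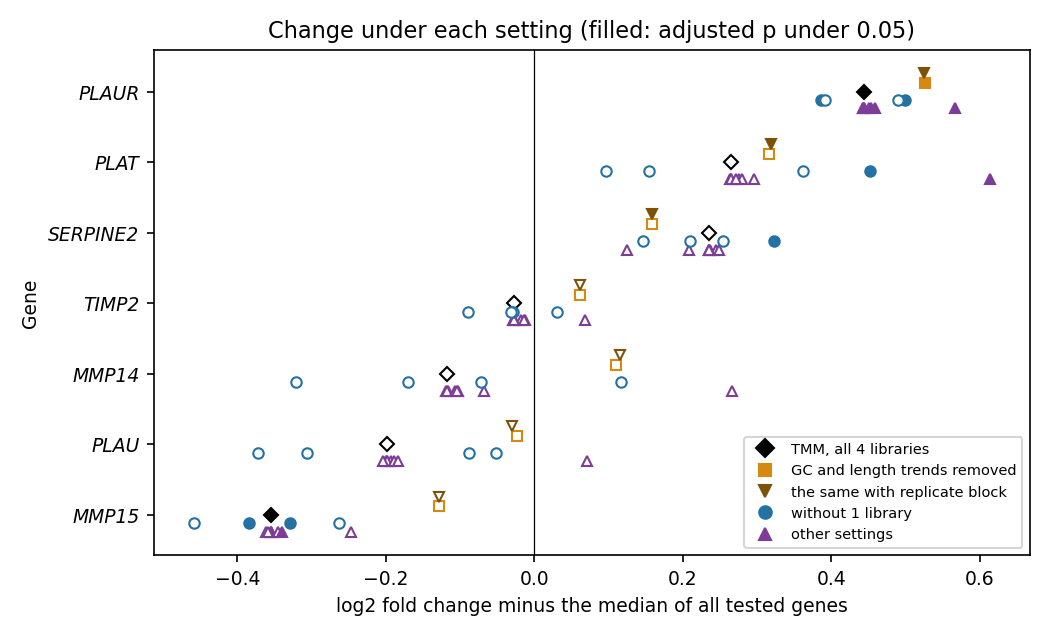
Log2 fold change of the 7 tested members minus the median over the tested genes of that setting (horizontal axis), for each gene (rows). Diamonds are TMM scaling with all 4 libraries, squares and downward triangles have GC and length trends removed without and with a replicate block, circles leave out 1 library, upward triangles are the other settings, and filled symbols have an adjusted p under 0.05. PLAUR lay above the median gene and MMP15 below it in every setting drawn, while MMP14, PLAU and TIMP2 lay on both sides.

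Around the members, 24 other genes of the plasminogen and clotting systems were read as a group. This group and the lists below were chosen with earlier results of these data known, so their shares of called genes are descriptions. Of the 24 genes, 11 passed the count minimum, 4 were upregulated and 1 was downregulated, 45.5% of those tested beside 7.1% of all tested genes. Their median log2 fold change was 0.14 beside -0.015, but 0.041 with GC and length trends removed, 0.067 with upper-quartile scaling, 0.027 without DMSO replicate 2, 0.29 without DMSO replicate 1 and -0.056 with the ERCC factor, where 5 genes were higher and 6 lower. Without either dTAG library, 1 gene of the list was called. Plasminogen itself (PLG) was not tested, with at most 4 counts per library. F3, tissue factor, which starts clotting at the cell surface, had 80.7 and 79.5 CPM with DMSO and 170.9 and 148.0 CPM with dTAG. This was a log2 fold change of 0.99 (standard error 0.089, adjusted p = 1.2e-06 in the edgeR quasi-likelihood test), and it was called whichever library was left out.

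ANXA2 and S100A10 encode the chains of a complex that binds plasminogen and tissue plasminogen activator at the membrane, and both were higher, by 0.41 (adjusted p = 0.020) and 0.34 (adjusted p = 0.032) on the log2 scale in the edgeR quasi-likelihood test. ANXA2 had 569.7 and 596.1 CPM with DMSO and 800.3 and 747.2 CPM with dTAG. LRP1, an endocytic receptor that clears complexes of protease and serpin together with PLAUR, was lower, at 18.4 and 23.4 CPM with DMSO and 14.2 and 13.4 CPM with dTAG. This was a log2 fold change of -0.60 (standard error 0.13, adjusted p = 0.0074 by the same test), but 0.086 with ERCC totals, where the median gene was at 0.63. The calls of ANXA2, S100A10 and LRP1 were lost without dTAG replicate 1 (adjusted p = 0.53, 0.62 and 0.072) and without dTAG replicate 2 (adjusted p = 0.72, 0.25 and 0.33), in the same test. S100A10 was also not called with upper-quartile scaling (0.26, adjusted p = 0.070), nor LRP1 with the ERCC factor (-0.34, adjusted p = 0.078), in the same test.

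**Figure D4:**
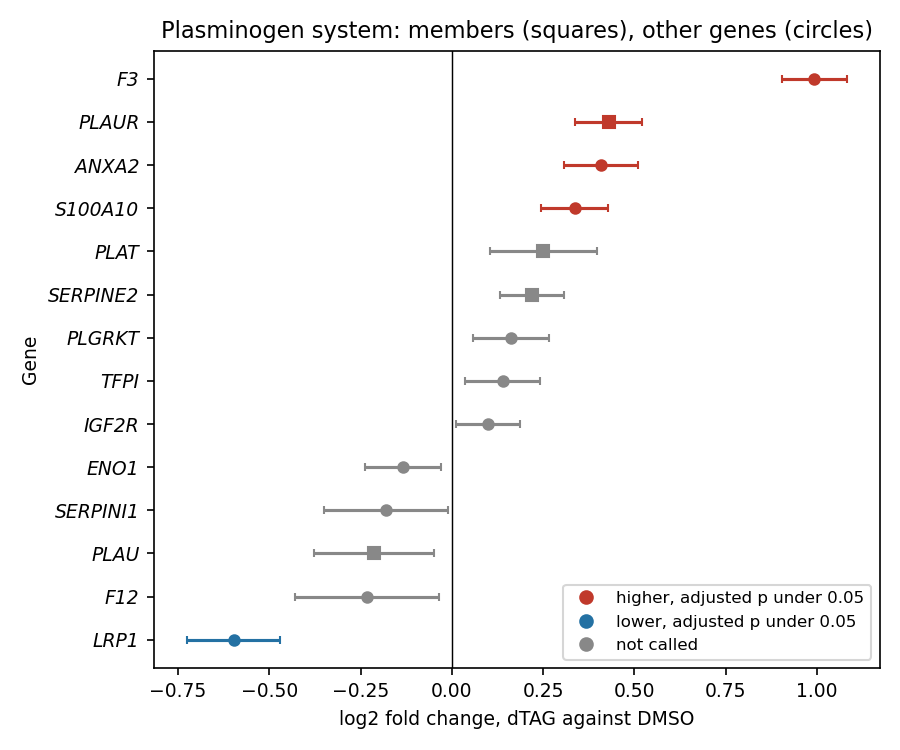
Log2 fold change of dTAG against DMSO (horizontal axis, TMM scaling) for the 4 members (squares) and 10 of the other tested genes (circles) of the plasminogen and clotting systems, with bars of 1 standard error. Red marks calls higher and blue calls lower at an adjusted p under 0.05. F3 (0.99), PLAUR (0.43), ANXA2 (0.41) and S100A10 (0.34) were higher and LRP1 (-0.60) lower, and PLAU and PLAT were not called.

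No gene was called in 2 lists of other serine proteases and serpins when all 4 libraries were compared with TMM scaling. Of 18 membrane serine proteases, their Kunitz inhibitors and thrombin receptors, 10 were tested, with 2 higher, 8 lower and a median of -0.17 on the log2 scale. Of 19 other serpins, 7 were tested, with 3 higher, 4 lower and a median of -0.08. Each of these lists had 0 called genes in the edgeR quasi-likelihood test and 3 at an unadjusted p under 0.05. DESeq2 also called 0 in each list, but without DMSO replicate 1, when 5491 of all tested genes were called, 5 and 3 genes were, and with GC and length trends removed 3 and 1.

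Of 27 other matrix metalloproteinases, inhibitors and their partners, 9 passed the count minimum, which were MMP11, MMP17, MMP25, MMP28, TIMP1, RECK, BSG, CD151 and FURIN. The collagenase MMP1, the gelatinases MMP2 and MMP9 and the matrilysin MMP7 were not tested, with at most 29 counts per library. With TMM scaling and all 4 libraries, none of the 9 was called in the edgeR quasi-likelihood test, and 2 had an unadjusted p under 0.05. DESeq2, upper-quartile scaling, the ERCC factor and the likelihood ratio test each called 1. All 9 had negative log2 fold changes (median -0.23, range -0.39 to -0.01), but positive ones with ERCC totals (median 0.43, where the median gene was at 0.63). Their median GC content was 58.2%, and with GC and length trends removed 4 were higher and 5 lower, with a median of -0.02.

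The ADAM and ADAMTS metalloproteases, which shed surface proteins or cut proteoglycans, had 14 of 28 genes tested. Of these, 3 were upregulated and 2 downregulated (35.7% called, beside 7.1% of all tested genes). The median log2 fold change was -0.17, with 6 higher and 8 lower. With a replicate block 2 genes of the list were called, and with GC and length trends removed 8. ADAMTS16 had 34.7 and 37.1 CPM with DMSO and 59.7 and 66.5 CPM with dTAG. This was a log2 fold change of 0.81 (standard error 0.092, adjusted p = 1.7e-05 in the edgeR quasi-likelihood test), and it was called whichever library was left out. ADAM9, a membrane sheddase, was higher by 0.43 (adjusted p = 0.016) and ADAMTS17 by 0.39 (adjusted p = 0.0065) on the log2 scale by the same test. ADAM15 (-0.44, adjusted p = 0.020) and ADAMTS7 (-0.39, adjusted p = 0.042) were lower by the same test, though at 0.21 and 0.27 with ERCC totals. ADAM15 also lost its call with GC and length trends removed (-0.19, adjusted p = 0.12), and ADAMTS7 with the ERCC factor (-0.22, adjusted p = 0.22), in the edgeR quasi-likelihood test. The calls of these last 4 genes were lost without either dTAG library (adjusted p from 0.23 to 0.89), and that of ADAMTS7 also without DMSO replicate 2 (adjusted p = 0.070).

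Of 32 matrix substrates, 22 were tested and 1 was called, or 4.55% beside 7.1% of all tested genes. This was LAMB3, a chain of the basement membrane laminin of epithelia, with 38.7 and 43.98 CPM with DMSO and 64.1 and 57.8 CPM with dTAG (log2 fold change 0.56, standard error 0.094, adjusted p = 0.0010 in the edgeR quasi-likelihood test). The call was lost without dTAG replicate 1 (0.49, adjusted p = 0.11 in the same test). The partner chain LAMA3 was not called (0.08, adjusted p = 0.56 in the same test).

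Of 25 genes for TGF-beta ligands, receptors, activators and feedback, 24 were tested, with 2 upregulated and 2 downregulated. That was 16.7% called beside 7.1% of all tested genes, and the median log2 fold change was 0.11. The median was 0.031 with GC and length trends removed, where 9 genes were called, 0.038 with upper-quartile scaling, 0.031 without DMSO replicate 2 and -0.031 with the ERCC factor, where 9 genes were higher and 15 lower. THBS1, a matrix protein that activates latent TGF-beta, had 17.1 and 15.8 CPM with DMSO and 23.3 and 21.0 CPM with dTAG (log2 fold change 0.43, adjusted p = 0.028 in the edgeR quasi-likelihood test). SMURF2, a ubiquitin ligase for SMADs and receptors, was higher by 0.39 (adjusted p = 0.031 by the same test). The feedback inhibitor SMAD7 and the decoy receptor BAMBI were both lower, by -0.39 each (adjusted p = 0.020 and 0.011 by the same test), though at 0.29 and 0.26 with ERCC totals. With the ERCC factor, THBS1 (0.35, adjusted p = 0.074), SMURF2 (0.13, adjusted p = 0.15) and SMAD7 (-0.14, adjusted p = 0.20) were not called, nor was THBS1 with upper-quartile scaling (adjusted p = 0.063), in the same test. All 4 calls were lost without either dTAG library (adjusted p from 0.19 to 0.90 in the same test). The 3 TGF-beta ligand genes and the 2 main receptors, TGFBR1 and TGFBR2, were not called, with log2 fold changes from -0.11 to 0.17.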

How the data were processed

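Nascent RNA was measured by TT-Seq in 4 libraries, grouped by the treatment in the labels. The authors used Trim Galore 0.6.4 for trimming, STAR for mapping to hg38 and featureCounts (Subread 1.6.3) for counting. They deposited raw counts over the full length of each protein-coding gene, introns included, and over 92 ERCC spike-ins, with no normalization. The sources do not state how strand or overlapping genes were treated, and the table itself shows that reads shared by genes of the same strand were not counted. Of 19901 rows, 19802 matched a symbol and 19784 overlapped the same identifier in GENCODE 44. Promoter sequences are from RefSeq.

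A gene was tested if every library had 50 counts or more (12612 genes, holding 99.9% of gene counts). Tests were made in R 4.3.3 with edgeR 4.0.16 (TMM scaling, two-sided quasi-likelihood test, Benjamini-Hochberg adjustment over all tested genes, no replicate block), after tests on simulated data. TMM was used because the study's spike-in procedure names RUVSeq without its function or number of factors, and ERCC settings were alternatives. CPM are the counts of a gene relative to the TMM-scaled library size. Standard errors and 95% intervals are of the log2 fold change. The labels number the replicates and the study calls them biological replicates. The p-values set the difference between conditions against the spread between these samples, which was estimated with information from all tested genes. Gene counts per library were 93105627 to 102314741, and between-replicate spread, with 2 libraries per condition, limits precision more than counting does except in genes of few counts.

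Alternatives were DESeq2 1.42.0, upper-quartile scaling, ERCC totals as library sizes, 1 ERCC factor as a covariate (from the 14 ERCC RNAs that pass the minimum), the likelihood ratio test, a count minimum of 10, no count filter, a replicate block, removal of trends with GC content and gene length (lowess, span 0.3), both together, and leaving out each library. The members and gene lists were chosen with earlier results of these data known. Genes named are all members, TRIM28, the called genes of each list (up to 5 each way), genes overlapping members, neighbours of called members and the 3 genes most like the member of the largest change. Other genes named, such as those that make up a list, LAMA3 or the TGF-beta receptors, were added after their values were seen. Some genes that count toward the lists are not reported here by name.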

Additional observations from a re-analysis of the deposited data

How the results depend on the processing

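All tested genes gave 895 calls, 1593 by likelihood ratio, 1417 unfiltered, 0 with ERCC totals (229 at unadjusted p under 0.05), and 2284 without GC and length trends. Pathway-list calls, 15 in all, were 0 and 28 in the last 2 settings, and member calls, 2 in all, were 0 and 1, and 1 with a minimum of 10 counts. Leaving out 1 library gave 69 (dTAG replicate 2) to 5491 (DMSO replicate 1) calls, 0 to 3 members and 2 to 52 list genes. Each such fit leaves 1 condition with 1 library, assumed to vary like the others.

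With the replicate block, 340 genes, 1 member and 7 list genes were called, and MMP15 was not (-0.37, adjusted p = 0.15 by edgeR), while PLAUR still was (adjusted p = 0.024). The block also ended the calls of TRIM28 (adjusted p = 0.059), ANXA2 (0.17), S100A10 (0.10), ADAM9 (0.10), ADAM15 (0.083), ADAMTS7 (0.13), THBS1 (0.098), SMURF2 (0.17) and BAMBI (0.051). With block and trends removed together, 2627 genes, 3 members and 29 list genes were called. The main fit had no block because the study's methods name none. Over the tested genes, same-numbered libraries tended weakly to deviate from their group means in opposite directions (correlation -0.30). A block with crossed numbers, chosen after seeing the data, called 3190 genes and 3 members.

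The members' median of -0.04 became 0.62 with ERCC totals, 0.073 with the ERCC factor, 0.11 without trends (with or without block), and -0.11 to 0.11 without 1 library. With ERCC totals log2 fold changes were PLAU 0.44, MMP14 0.57, MMP15 0.27, TIMP2 0.62, PLAUR 1.08, LRP1 0.086, ADAM15 0.21, ADAMTS7 0.27, SMAD7 0.29, BAMBI 0.26 and TRIM28 0.28. With the ERCC factor they were PLAU 0.020, MMP14 0.21, TIMP2 0.018, MMP15 -0.30 and PLAT 0.56. Without trends, they were MMP14 0.11, TIMP2 0.060 and MMP15 -0.13, the same with the block, which also called SERPINE2 (0.16) and PLAT (0.32). MMP15 was at -0.36 with a minimum of 10 counts. Without 1 library the ranges were SERPINE2 0.14 to 0.30, PLAUR 0.37 to 0.49, PLAT 0.078 to 0.45, PLAU -0.38 to -0.060, MMP14 -0.34 to 0.11, MMP15 -0.47 to -0.27 and TIMP2 -0.11 to 0.026. The causes were not tested. ERCC totals ended the call of every gene named. DESeq2 and upper-quartile scaling changed no member's call or direction.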
